A study of Mus musculus with 18 samples.

Results

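The genes described here are the receptors for extracellular nucleotides and the cell-surface enzymes that break those nucleotides down, in XCR1+ dendritic cells (DCs) of the mouse thymus. The list of 10 gene symbols was chosen by function with the measured log2 changes between CCR7+ and CCR7- cells already in view, and a gene was kept where a probeset of the array is annotated to that symbol alone. This gave 9 genes of 19938 measured: the P2Y receptors P2ry6, P2ry14, P2ry12, P2ry13 and P2ry2, the P2X receptors P2rx4 and P2rx7, and the ectonucleotidases Entpd1 and Nt5e. The adenosine receptor Adora2a was not analysed here. Each of the 9 genes had 1 probeset.

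The data are log2 intensities from 18 Affymetrix arrays, 3 for each of 6 groups. All mice were on the B6 background and were not treated. Cells lacking CD11b and CD172a and carrying CD11c, MHC class II, XCR1 and CD8a were sorted as homeostatically matured cells (CCR7+, CD117-) or immature cells (CCR7-, CD117+). Both stages came from Ifnar1-KO mice, which cannot receive type I interferon and were kept specific-pathogen-free, from germ-free wild-type mice (GF) and from specific-pathogen-free wild-type mice (CTRL). The knockout is not restricted to DCs as far as the labels say, and the labels give no age. Nothing ties the 3 arrays of a group to separate animals, so errors and p-values cover the spread among arrays, which may be technical.

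Extracellular ATP, UDP and UDP-sugars leave stressed or dying cells and act as danger signals on myeloid cells. P2Y receptors are coupled to G proteins and read ATP, ADP, UTP, UDP or UDP-sugars, whereas P2X receptors are ion channels opened by ATP. CD39, encoded by Entpd1, removes phosphates from ATP and ADP to leave AMP, and CD73, encoded by Nt5e, turns AMP into adenosine, which dampens immune cells through adenosine receptors. XCR1+ DCs of the thymus take up dying thymocytes and present their antigens.

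The arrays matched their stage labels. Of 10 XCR1+ DC markers, the mean level was 6.75 to 8.14 on CCR7+ and 10.04 to 10.24 on CCR7- arrays. That of 10 mature DC markers was 10.71 to 11.11 on CCR7+ and 7.31 to 8.65 on CCR7- arrays. By background, the CCR7- arrays read 8.42 to 8.65 in CTRL, 7.7 to 8.07 in Ifnar1-KO and 7.31, 7.56 and 8.62 in GF. Ccr7 in CCR7- cells differed from CTRL by -1.09 ± 0.35 in Ifnar1-KO and -0.95 ± 0.35 in GF, and neither was called (unadjusted p 0.00786 and 0.0175, limma). Whether CTRL CCR7- populations held more maturing cells, which would bear on comparisons between backgrounds, was not tested. Both arrays of Ifnar1-KO replicate 2 and of GF replicates 2 and 3 stood apart from the others on a second principal component that held 4.2% of the variance. The Ifnar1 probeset read 6.07 to 7.61 on CCR7+ and 7.27 to 8.07 on CCR7- arrays of Ifnar1-KO mice, against 7.61 to 7.82 and 8.06 to 8.09 in CTRL, so it does not check the genotype label, and the part of the transcript it covers is unknown here. Thymocyte marker levels (18 genes) averaged 5.11 to 7.56 on CCR7+ and 4.46 to 5.14 on CCR7- arrays, with the 7.56 on Ifnar1-KO CCR7+ replicate 2 and no other array above 6.09. Macrophage marker levels (11 genes) averaged 4.28 to 4.51 on CCR7+ and 3.99 to 4.14 on CCR7- arrays. Of the 11, 2 rose in Ifnar1-KO and in GF and 1 in CTRL, where 9.42%, 9.53% and 12.6% of all genes rose. Of the whole list, Spic read 5.26 to 7.17 on CCR7+ and 3.70 to 4.48 on CCR7- arrays, C1qb 4.18 to 4.92 and 3.87 to 4.32, and C1qc 4.59 to 5.66 and 4.58 to 5.27, while Adgre1, Mertk and Cd163 read 3.75 or less on every array. The median gene of the array had a mean level of 4.72.

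Since those changes were known, the difference between CCR7+ and CCR7- cells is described without a test. P2ry6, P2ry14 and Entpd1 were far lower in CCR7+ than in CCR7- cells of every background, P2rx7, P2ry12 and P2ry13 were lower by smaller amounts, and P2rx4 was higher. P2ry2 and Nt5e stayed at low levels in both stages. Over all 18 arrays, the 9 CCR7+ arrays lay entirely below the 9 CCR7- arrays for 5 of the 9 genes, where this held for 8.28% of all genes, and entirely above them for 1, where this held for 7% of all genes; the groups overlapped for 3.

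P2ry6 encodes the receptor for UDP. It read 4.72, 4.57 and 5.93 on the CCR7+ arrays of Ifnar1-KO mice, against 10.13, 10.22 and 10.25 on their CCR7- arrays. In GF mice it read 5.16, 6.09 and 4.71 on CCR7+ arrays and 10.25, 10.46 and 10.26 on CCR7- arrays. In CTRL mice it read 5.14, 4.93 and 4.96 on CCR7+ arrays and 10.43, 10.07 and 9.92 on CCR7- arrays. The lowest CCR7- array (9.92) thus lay well above the highest CCR7+ array (6.09). The log2 change, CCR7+ minus CCR7-, was -5.13 ± 0.33 in Ifnar1-KO, -5.01 ± 0.33 in GF and -5.13 ± 0.33 in CTRL mice (± SE from limma, n = 3 arrays per group), or measured folds of 34.9, 32.2 and 35.0. Most CCR7+ arrays read P2ry6 near the level of the median gene, where signal could not be told from background, so these changes and folds may be smaller than the true ones. In sorted populations a lower level can mean fewer cells carrying the transcript or less of it per cell, and these cannot be told apart.

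P2ry14 encodes the receptor for UDP-glucose and related UDP-sugars. It read 4.70, 4.19 and 6.07 on CCR7+ arrays and 9.54, 9.33 and 9.54 on CCR7- arrays of Ifnar1-KO mice. In GF mice the values were 4.37, 5.23 and 5.21 on CCR7+ arrays and 9.48, 9.98 and 9.73 on CCR7- arrays. In CTRL mice they were 4.97, 4.56 and 4.64 on CCR7+ arrays and 9.63, 9.58 and 9.47 on CCR7- arrays. The stages did not overlap, and all 9 CCR7- arrays lay within 9.33 to 9.98. The log2 change was -4.49 ± 0.35 in Ifnar1-KO, -4.79 ± 0.35 in GF and -4.84 ± 0.35 in CTRL mice.

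Entpd1 encodes CD39, the enzyme that starts the breakdown of extracellular ATP. It read 4.93, 5.15 and 6.51 on CCR7+ arrays and 9.70, 9.54 and 9.83 on CCR7- arrays of Ifnar1-KO mice. In GF mice it read 5.31, 6.75 and 4.23 on CCR7+ arrays and 9.41, 9.69 and 10.22 on CCR7- arrays. In CTRL mice it read 4.92, 4.90 and 4.42 on CCR7+ arrays and 9.79, 9.82 and 9.84 on CCR7- arrays. CCR7- levels hardly varied in CTRL (SD 0.02), while CCR7+ levels varied most in GF (SD 1.26) and Ifnar1-KO (SD 0.85). The log2 change was -4.16 ± 0.49 in Ifnar1-KO, -4.34 ± 0.49 in GF and -5.07 ± 0.49 in CTRL mice.

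In Ifnar1-KO the same CCR7+ array was clearly the highest for these 3 genes, and in GF for P2ry6 and Entpd1. Ifnar1-KO replicate 3 was the highest of its group for P2ry6 (5.93), P2ry14 (6.07) and Entpd1 (6.51). GF replicate 2 was the highest of its group for P2ry6 (6.09) and Entpd1 (6.75). For P2ry14, GF replicates 2 (5.23) and 3 (5.21) were level, and replicate 3 was the lowest for P2ry6 (4.71) and Entpd1 (4.23). Ifnar1-KO replicate 3 and GF replicate 2 also had the highest Xcr1 of their groups (8.36 and 7.97, CTRL CCR7+ cells 6.30 to 6.48). On the first principal component, which separates the stages, they lay at -39.88 and -41.28, nearer to the CCR7- arrays than the CTRL CCR7+ arrays at -48.31 to -50.86. Ifnar1-KO CCR7+ replicate 2 lay about as near, at -42.03, but had the lowest Xcr1 (4.89) and P2ry14 (4.19) of its group. Without Ifnar1-KO CCR7+ replicate 3 the change of P2ry14 in Ifnar1-KO was -5.03, and without replicate 2 it was -4.09. The change of Entpd1 in GF was -5 without GF CCR7+ replicate 2 and -3.74 without GF CCR7+ replicate 3. Whether the sorted populations of these arrays held more immature cells was not tested.

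**Figure D1:**
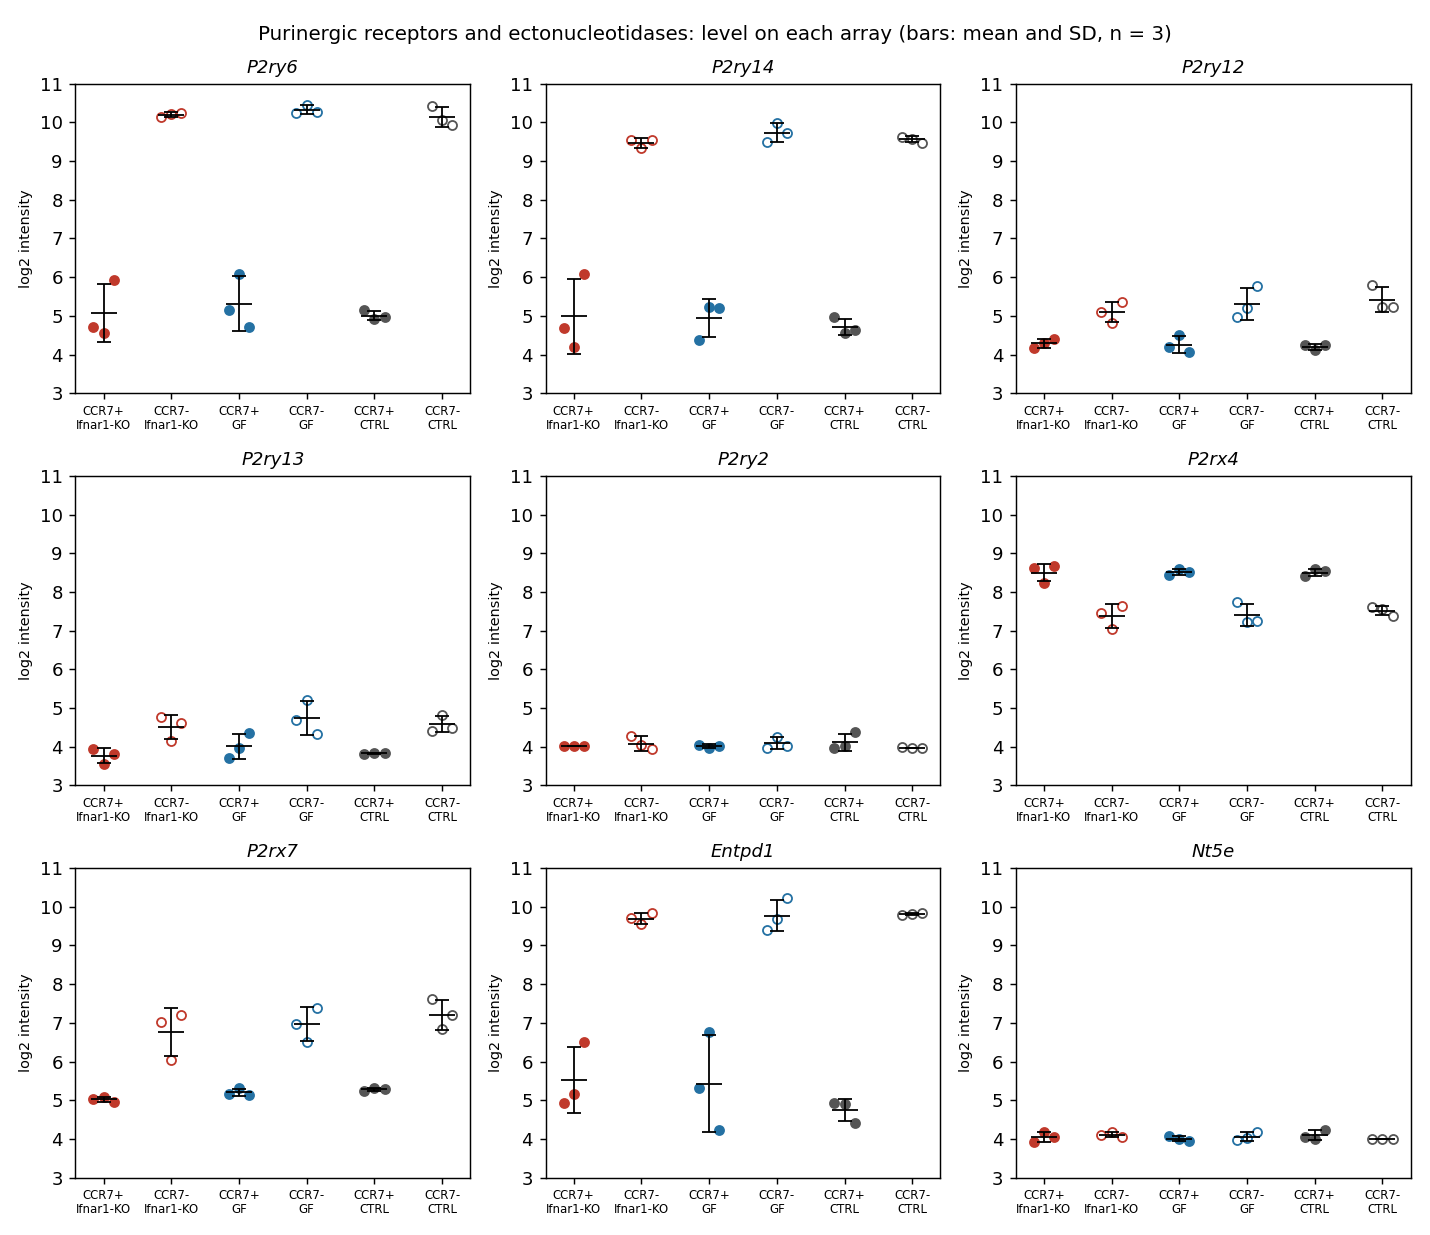
Level of each gene on every array, as log2 intensity on the vertical axis, with filled points for CCR7+ and open points for CCR7- arrays and bars for the mean and SD of 3 arrays. P2ry6, P2ry14 and Entpd1 sit at 9.33 or above on all CCR7- arrays and at 6.75 or below on all CCR7+ arrays, P2rx4 is higher on CCR7+ arrays, and P2ry2 and Nt5e stay between 3.93 and 4.37.

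P2rx7 encodes the channel that opens at high ATP and is known for switching on the inflammasome in macrophages. It read 5.02, 5.08 and 4.96 on CCR7+ arrays and 7.02, 6.04 and 7.20 on CCR7- arrays of Ifnar1-KO mice. In GF mice it read 5.15, 5.31 and 5.13 on CCR7+ arrays and 6.98, 6.5 and 7.39 on CCR7- arrays. In CTRL mice it read 5.24, 5.31 and 5.28 on CCR7+ arrays and 7.61, 6.84 and 7.19 on CCR7- arrays. CCR7+ levels were uniform (4.96 to 5.31), and the spread lay among the CCR7- arrays (6.04 to 7.61). The log2 change was -1.73 ± 0.27 in Ifnar1-KO, -1.76 ± 0.27 in GF and -1.94 ± 0.27 in CTRL mice.

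P2rx4, the neighbouring ATP-gated channel, which is also found in lysosomal membranes, was the one member that was higher in CCR7+ cells. It read 8.61, 8.24 and 8.67 on CCR7+ arrays and 7.46, 7.03 and 7.63 on CCR7- arrays of Ifnar1-KO mice. In GF mice it read 8.45, 8.58 and 8.51 on CCR7+ arrays and 7.74, 7.23 and 7.25 on CCR7- arrays. In CTRL mice it read 8.40, 8.58 and 8.53 on CCR7+ arrays and 7.60, 7.57 and 7.39 on CCR7- arrays. The lowest CCR7+ array (8.24) lay above the highest CCR7- array (7.74). The log2 change was 1.13 ± 0.16 in Ifnar1-KO, 1.11 ± 0.16 in GF and 0.98 ± 0.16 in CTRL mice, measured folds of 2.18, 2.15 and 1.98. Without GF replicates 2 and 3 at both stages, a choice made after the data were seen, the change of P2rx4 in GF was 0.70.

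The 3 other P2Y receptors had low levels. P2ry12, an ADP receptor known from platelets and microglia, lay at 4.08 to 4.50 on CCR7+ and 4.82 to 5.80 on CCR7- arrays, with log2 changes of -0.80 ± 0.20 in Ifnar1-KO, -1.06 ± 0.20 in GF and -1.22 ± 0.20 in CTRL mice. P2ry13, also an ADP receptor, lay at 3.56 to 4.36 on CCR7+ and 4.15 to 5.21 on CCR7- arrays, which overlap, with changes of -0.74 ± 0.22, -0.73 ± 0.22 and -0.75 ± 0.22 in Ifnar1-KO, GF and CTRL mice. P2ry2, the receptor for ATP and UTP, lay at 3.96 to 4.37 on CCR7+ and 3.93 to 4.29 on CCR7- arrays. Nt5e, encoding CD73, likewise lay at 3.93 to 4.24 on CCR7+ and 3.97 to 4.19 on CCR7- arrays. The changes of P2ry2 and Nt5e were between -0.08 and 0.15 in all backgrounds. P2ry13, P2ry2 and Nt5e were below the median gene over all arrays, and the other 6 members were above it. The deposited table has no detection calls, so levels this low could not be told from array background. This also holds in CCR7+ cells for P2ry12 and for most arrays of P2ry6, P2ry14 and Entpd1, whose changes may therefore be understated. P2rx7 on CCR7+ arrays (4.96 to 5.31) lay at about the same level as P2ry6, so its change may be understated too.

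The median change of the 9 members was -0.80 in Ifnar1-KO, -1.06 in GF and -1.22 in CTRL, beside 0.00, 0.03 and 0.07 over all genes.

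**Figure D2:**
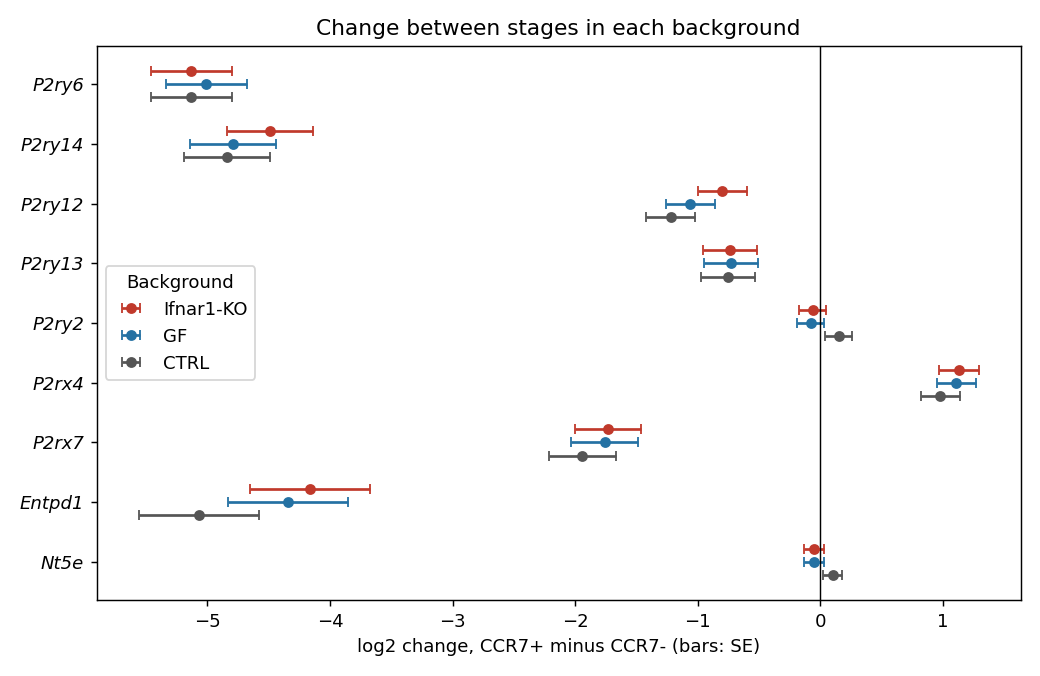
Log2 change from CCR7- to CCR7+ cells on the horizontal axis for each gene, with 1 point per background and bars for the SE from limma. P2ry6 lies near -5 and P2rx4 near 1 in all 3 backgrounds, and the backgrounds are furthest apart for Entpd1, at -4.16 in Ifnar1-KO, -4.34 in GF and -5.07 in CTRL.

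Several members lie next to each other on the chromosomes, by the order of protein-coding genes in the RefSeq annotation of GRCm38.p6. P2ry14, P2ry13 and P2ry12 form a cluster on chromosome 3 with Gpr171, inside the span of Med12l and followed by Igsf10. Gpr171, a receptor related in sequence to the P2Y receptors, fell by 3.02 ± 0.36 in Ifnar1-KO, 3.2 ± 0.36 in GF and 4.13 ± 0.36 in CTRL mice on the log2 scale (adjusted p 1.60e-05, 8.85e-06 and 5.88e-07 by limma). Med12l, a relative of a Mediator subunit, fell by 0.77 ± 0.20 in GF (adjusted p 0.0124, limma) and 0.93 ± 0.20 in CTRL (adjusted p 0.00284, limma), while its change of -0.44 ± 0.20 in Ifnar1-KO did not pass (adjusted p 0.160, limma). Igsf10, an immunoglobulin superfamily gene, read 3.52 to 3.91 on all arrays and passed in no background. Within the cluster the 2 genes with the large changes, Gpr171 and P2ry14, are direct neighbours. P2ry6 and P2ry2 are neighbours on chromosome 7, and beside the large changes of P2ry6 those of P2ry2 were -0.06 in Ifnar1-KO, -0.08 in GF and 0.15 in CTRL, at levels that could not be told from background. P2rx7 and P2rx4 are neighbours on chromosome 5 and differed in opposite directions in all 3 backgrounds.

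**Figure D3:**
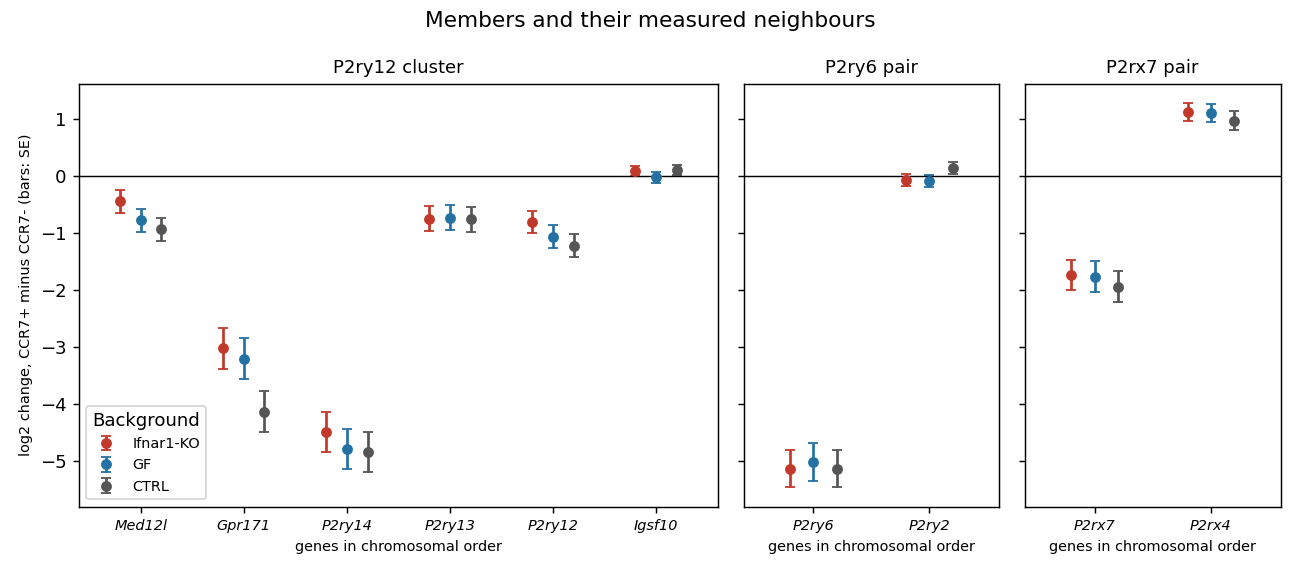
Log2 change from CCR7- to CCR7+ cells (vertical axis, bars for the SE from limma) for members and their measured neighbours, set out in chromosomal order and not to scale, with 1 point per background. The changes of Gpr171 and P2ry14 are several times those of P2ry13, P2ry12 and Med12l, and P2ry2 lies near 0 beside P2ry6, and P2rx7 and P2rx4 lie on opposite sides of 0 in all 3 backgrounds.

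Promoter sequences of 8 of the 9 genes were found in the RefSeq-derived table of GRCm38.p6, as 300 bases around a transcript start and mostly upstream of it, 14 in all. P2ry6 was not among them. The promoters of P2ry14 and Entpd1 are shown because both genes are strongly lower in CCR7+ cells, and those of P2rx7 and P2rx4 because these neighbours differ in opposite directions; where a gene has several annotated starts the most upstream one is given. Capitals mark matches to an AP-1 site (TGANTCA) or an NF-kB site (GGG and CC with 5 bases between them), on either strand.
P2ry14 (GRCm38.p6 chr3:59153443-59153742, minus strand): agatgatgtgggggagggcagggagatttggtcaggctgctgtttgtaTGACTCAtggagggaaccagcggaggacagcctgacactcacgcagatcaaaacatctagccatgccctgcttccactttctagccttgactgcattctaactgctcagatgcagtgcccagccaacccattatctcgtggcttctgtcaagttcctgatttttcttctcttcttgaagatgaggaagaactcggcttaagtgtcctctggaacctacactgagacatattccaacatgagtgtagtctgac
Entpd1 (GRCm38.p6 chr19:40612116-40612415, plus strand): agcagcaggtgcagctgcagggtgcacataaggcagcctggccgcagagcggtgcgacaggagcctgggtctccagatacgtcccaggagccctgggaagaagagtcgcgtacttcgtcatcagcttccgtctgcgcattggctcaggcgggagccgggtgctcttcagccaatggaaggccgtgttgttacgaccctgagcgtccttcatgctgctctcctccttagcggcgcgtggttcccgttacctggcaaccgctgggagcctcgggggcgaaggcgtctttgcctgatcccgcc
P2rx7 (GRCm38.p6 chr5:122643677-122643976, plus strand): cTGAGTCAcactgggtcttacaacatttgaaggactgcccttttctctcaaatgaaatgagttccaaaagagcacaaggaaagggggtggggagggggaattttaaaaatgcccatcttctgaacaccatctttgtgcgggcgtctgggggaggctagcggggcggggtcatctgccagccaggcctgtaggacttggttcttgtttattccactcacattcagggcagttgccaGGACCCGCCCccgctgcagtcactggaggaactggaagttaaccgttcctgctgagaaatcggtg
P2rx4 (GRCm38.p6 chr5:122707294-122707593, plus strand): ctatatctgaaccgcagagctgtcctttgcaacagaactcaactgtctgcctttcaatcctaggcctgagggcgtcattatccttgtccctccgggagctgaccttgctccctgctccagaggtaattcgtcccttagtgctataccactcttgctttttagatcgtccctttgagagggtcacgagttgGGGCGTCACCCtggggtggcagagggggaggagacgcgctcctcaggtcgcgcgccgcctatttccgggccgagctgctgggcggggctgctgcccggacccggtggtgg
The promoter of P2ry14 holds 1 AP-1 match, that of P2rx7 holds 1 AP-1 match and 1 NF-kB match, that of P2rx4 holds 2 NF-kB matches that overlap, and that of Entpd1 holds neither. Over all 14 promoters of the members, 3 held the AP-1 pattern and 7 the NF-kB pattern. These belonged to 2 and 6 of the 8 genes, and the 2 promoters of P2ry2 overlap and share 1 NF-kB match. Of 32851 mouse promoters of this length, 7.81% held the AP-1 pattern and 50.8% the NF-kB pattern. The ETS-IRF composite pattern (GGAA and GAAA with 2 bases between them, 2.72% of promoters) and the interferon response core (GAAA and GAAA with 2 bases between them, 3.44%) were found in none of the 14. These are matches of letters and do not show binding.

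Whether type I interferon signalling or the microflora bears on these genes was then asked of the 9 members in 6 comparisons between backgrounds. Those that compare the change between stages are built from changes known when the genes were chosen, so they are not independent of that choice. No member passed in any of the 54 tests by limma with Benjamini-Hochberg adjustment over all genes, and none had an unadjusted p under 0.05. The smallest unadjusted p was 0.106, for P2rx7 in Ifnar1-KO minus CTRL CCR7- cells. All genes gave few calls as well: 0% passed for the difference of the change between Ifnar1-KO and CTRL and between GF and CTRL, where 4.52% and 3.31% of genes had an unadjusted p under 0.05. Between Ifnar1-KO and CTRL, 0.015% of genes passed in CCR7+ cells, with 2.92% at an unadjusted p under 0.05, and 0% passed in CCR7- cells, with 7.03%. Between GF and CTRL, 0.0301% passed in CCR7+ cells, with 5.86% at an unadjusted p under 0.05, and 0.015% in CCR7- cells, with 6.32%. The comparisons share the CTRL arrays, so they are not independent of each other. A trailing r in some array codes, of unknown meaning, was also more common in Ifnar1-KO and GF than in CTRL arrays.

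For the receptors, the change from CCR7- to CCR7+ cells differed from that in CTRL by -0.22 to 0.42, and no difference was called. For P2ry6 the change in Ifnar1-KO minus the change in CTRL was 0.00 ± 0.47 (95% interval -1 to 1.01), and the change in GF minus that in CTRL was 0.12 ± 0.47 (95% interval -0.88 to 1.13). For P2ry14 the differences were 0.35 ± 0.50 (95% interval -0.71 to 1.41) for Ifnar1-KO and 0.05 ± 0.50 (95% interval -1.02 to 1.11) for GF. Each interval is narrow beside the change of about 5 that both genes showed in CTRL, but leaves room for measured differences of about 1. Most CCR7+ arrays read both genes at levels that could not be told from background. The intervals therefore cover the measured signal only, and a true difference could be larger. For P2rx4 the differences were 0.14 ± 0.23 (95% interval -0.35 to 0.63) and 0.12 ± 0.23 (95% interval -0.37 to 0.61), and for P2rx7 0.20 ± 0.38 (95% interval -0.60 to 1.01) and 0.17 ± 0.38 (95% interval -0.63 to 0.98), for Ifnar1-KO and GF in that order. For P2ry12, P2ry13, P2ry2 and Nt5e the differences ranged from -0.22 to 0.42. That of P2ry12 in Ifnar1-KO was 0.42 ± 0.28 (95% interval -0.18 to 1.03), beside its change of -1.22 in CTRL. For P2ry13 the intervals were -0.65 to 0.67 in Ifnar1-KO and -0.64 to 0.68 in GF, beside a CTRL change of -0.75. Intervals this wide do not show that these changes are alike between backgrounds.

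Entpd1 had the largest measured difference. Its change in Ifnar1-KO minus that in CTRL was 0.91 ± 0.70 (95% interval -0.58 to 2.4, adjusted p 0.958 by limma), and its change in GF minus that in CTRL was 0.72 ± 0.70 (95% interval -0.77 to 2.21, adjusted p 0.999 by limma). In CCR7+ cells the measured values were 0.78 ± 0.49 for Ifnar1-KO minus CTRL and 0.68 ± 0.49 for GF minus CTRL. In CCR7- cells they were -0.12 ± 0.49 and -0.04 ± 0.49. None of these was called, so no difference can be placed in either stage. In CCR7+ cells Ifnar1-KO arrays read 4.93, 5.15 and 6.51 and GF arrays 5.31, 6.75 and 4.23, against at most 4.92 in CTRL. Apart from 6.51 and 6.75, these levels lay near those that could not be told from background. These differences did not exceed the spread between arrays, and intervals as wide as these do not show that the backgrounds are alike. The Ifnar1-KO and GF arrays with the highest Entpd1 were those with the highest Xcr1, as given above.

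Within a stage the other members differed from CTRL by -0.46 to 0.31. For P2rx7 in CCR7- cells the difference was -0.46 ± 0.27 in Ifnar1-KO minus CTRL (95% interval -1.03 to 0.11, adjusted p 0.684 by limma), where Ifnar1-KO replicate 2 was the low array at 6.04. For P2ry12 in CCR7- cells it was -0.33 ± 0.20 in Ifnar1-KO minus CTRL. P2ry6 in CCR7+ cells differed by 0.31 ± 0.33 in GF minus CTRL.

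**Figure D4:**
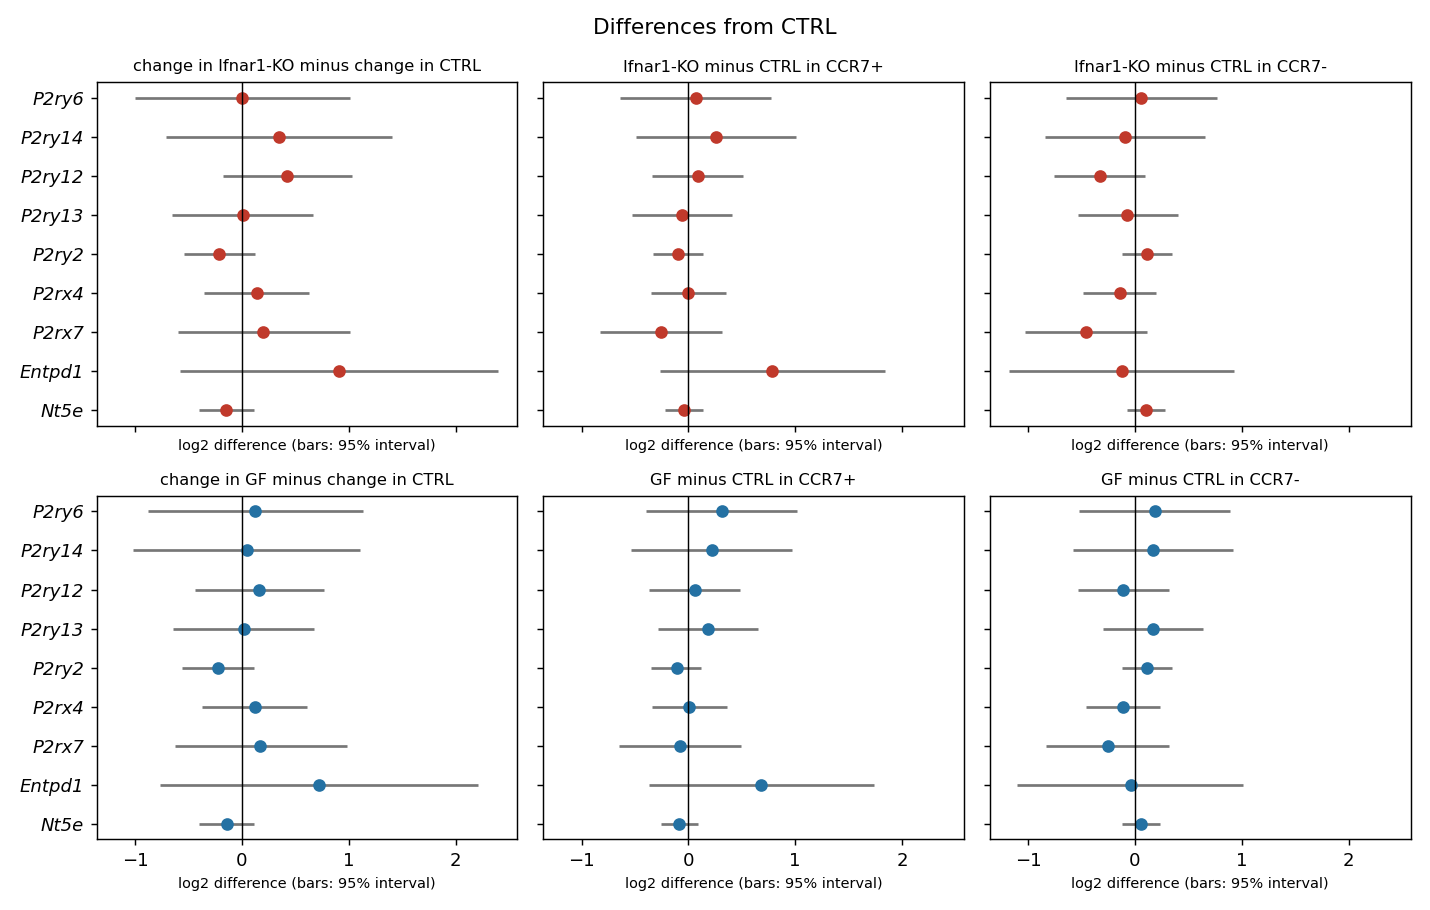
Differences from CTRL for each gene, as log2 difference on the horizontal axis with 95% intervals from limma. The upper row holds Ifnar1-KO and the lower row GF, and the columns give the difference of the change between stages, the difference in CCR7+ cells and the difference in CCR7- cells. Every interval includes 0, and Entpd1 has the widest.

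The other genes of the pathway were taken from a list of 48 further receptors, ectoenzymes, transporters and channels, of which 41 were measured. They were listed by function and their change between stages was tested, although earlier results of these data were known when the list was made. By limma with Benjamini-Hochberg adjustment over all genes, 2 rose and 7 fell in Ifnar1-KO, 1 rose and 7 fell in GF, and 3 rose and 10 fell in CTRL, where 28 did not pass. Among all genes, 9.42% rose and 10.8% fell in Ifnar1-KO, 9.53% and 11.8% in GF, and 12.6% and 13.6% in CTRL. With CCR7+ and CCR7- arrays of 1 number paired by a replicate block, 6 rose and 10 fell in CTRL. With each array centred on its median 1 rose and 10 fell in CTRL. The median change of the list was -0.03 in Ifnar1-KO, 0.03 in GF and -0.05 in CTRL, close to those of all genes.

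Among P2Y-like receptors 3 of 5 fell in every background: Gpr171, Gpr34 and P2ry10b. Of all genes, 10.8% fell in Ifnar1-KO, 11.8% in GF and 13.6% in CTRL. Gpr34, a receptor for lysophosphatidylserine, read 3.93 to 4.01 on CCR7+ and 5.68 to 7.08 on CCR7- arrays of Ifnar1-KO mice, 3.92 to 4.15 and 6.67 to 7.19 in GF mice, and 3.90 to 4.03 and 6.32 to 6.60 in CTRL mice. No CCR7+ array reached the lowest CCR7- array. Gpr34 changed by -2.48 ± 0.24 in Ifnar1-KO, -2.88 ± 0.24 in GF and -2.52 ± 0.24 in CTRL (adjusted p 2.57e-06, 5.42e-07 and 1.88e-06, limma), and its CCR7+ levels could not be told from background, so these falls may be understated. P2ry10b fell by 0.85 ± 0.18, 0.69 ± 0.18 and 0.54 ± 0.18 in Ifnar1-KO, GF and CTRL mice, at levels of 4.54 or less. P2ry10, another lysophosphatidylserine receptor, had changes of 0.17, 0.51 and 0.25 that did not pass.

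Of 10 measured genes listed under adenosine uptake and breakdown, 4 fell in Ifnar1-KO, 3 in GF and 4 in CTRL, and 0 rose. Among all genes 10.8%, 11.8% and 13.6% fell in these backgrounds, and counts out of 10 genes are too small to show a trait of the list. Ada, the adenosine deaminase, passed in no background. Adk, the kinase that returns adenosine to AMP inside the cell, read 4.14 to 4.62 on CCR7+ and 5.41 to 6.54 on CCR7- arrays of Ifnar1-KO mice, 3.83 to 4.39 and 5.28 to 6.65 in GF mice, and 4.13 to 4.74 and 6.13 to 6.56 in CTRL mice. Its change was -1.67 ± 0.33 in Ifnar1-KO, -2.07 ± 0.33 in GF and -1.86 ± 0.33 in CTRL (adjusted p 0.00184, 0.000292 and 0.000631, limma). The CCR7+ levels of Adk could not be told from background, so these falls may be understated. Pnp, the purine nucleoside phosphorylase that splits inosine and guanosine, fell by 0.84 ± 0.19, 0.92 ± 0.19 and 1.32 ± 0.19 in Ifnar1-KO, GF and CTRL mice. Slc29a3, a lysosomal nucleoside transporter, fell by 0.47 ± 0.13, 0.62 ± 0.13 and 0.70 ± 0.13.

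Of 13 other nucleotide-hydrolysing enzymes, 1 rose and 0 fell in Ifnar1-KO, 0 rose and 1 fell in GF, and 1 rose and 3 fell in CTRL. Among all genes, 9.42% rose and 10.8% fell in Ifnar1-KO, 9.53% and 11.8% in GF, and 12.6% and 13.6% in CTRL. The 1 that rose in Ifnar1-KO was Bst1, by 0.75 ± 0.21 (adjusted p 0.0184, limma), at 6.80 to 8.45 on Ifnar1-KO arrays. Its changes of 0.59 ± 0.21 in GF and 0.07 ± 0.21 in CTRL did not pass. Entpd5, an intracellular UDP- and GDP-hydrolysing relative of CD39, changed by -1.13 ± 0.31 in GF (adjusted p 0.0149, limma) and -1.51 ± 0.31 in CTRL (adjusted p 0.00171, limma), and by -0.59 ± 0.31 in Ifnar1-KO, which did not pass (adjusted p 0.235, limma). The array that set Ifnar1-KO apart was CCR7+ replicate 2, at 6.37 against 4.90 and 4.98, which is also the array with the highest thymocyte marker level (7.56); the part of those transcripts in this value was not tested. Without that array the change was -1.07 and passed (adjusted p 0.00159, limma). The GF call of Entpd5 was lost without CCR7- replicate 2 (-1.01) or CCR7+ replicate 1 (-1.04). Alpl, the tissue-nonspecific alkaline phosphatase, changed by -1.34 ± 0.23 in CTRL (adjusted p 0.000419, limma), and by -0.64 ± 0.23 in Ifnar1-KO and -0.57 ± 0.23 in GF, which did not pass. On CCR7+ arrays Alpl (4.19 to 4.52) and mostly Entpd5 (4.68 to 5.12) lay near the median gene, so their falls may be understated. The difference from CTRL in the change between stages was not called for any of the 41 genes in either background. Among ATP release genes, Gja1, which encodes connexin 43, rose by 0.49 ± 0.12 in CTRL (adjusted p 0.00608, limma), and the pannexins Panx1, Panx2 and Panx3 passed in no background. Of 5 other P2X receptors, P2rx5 rose by 0.68 ± 0.15 in Ifnar1-KO and 0.46 ± 0.15 in GF (adjusted p 0.0035 and 0.0395, limma), and P2rx6 rose by 0.34 ± 0.10 in CTRL (adjusted p 0.0241, limma). Gja1 (3.37 to 4.15 on all arrays) and P2rx6 (3.62 to 4.09) stayed at levels that could not be told from background. P2rx5 (4.16 to 5.29 on all arrays) had a mean of 4.67, below the median gene, so its rises lay near background as well. No gene of the list that reached the median level rose in CTRL. The other P2Y receptors P2ry1 and P2ry4 passed in no background.

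**Figure D5:**
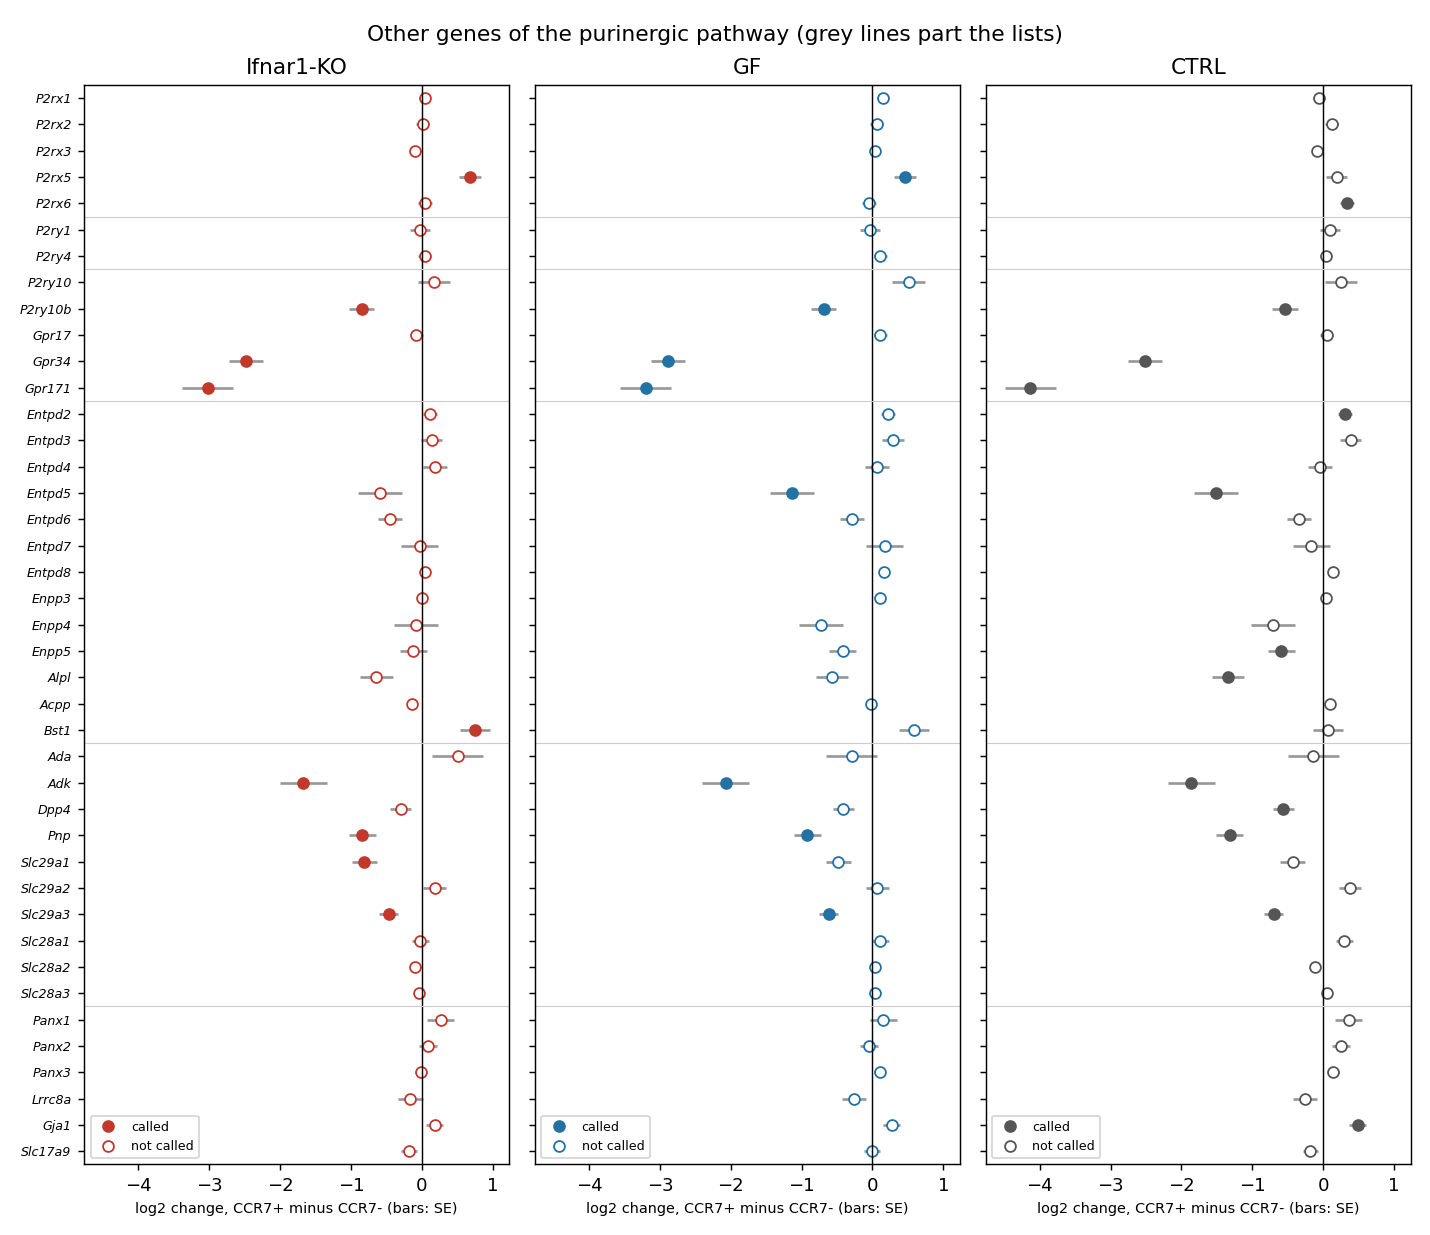
Log2 change from CCR7- to CCR7+ cells (horizontal axis, bars for the SE from limma) for the 41 other pathway genes, 1 panel per background, with filled points for genes called at an adjusted p under 0.05. Grey lines separate, from the top, P2X receptors, P2Y receptors, P2Y-like receptors, ectoenzymes, adenosine uptake and breakdown, and ATP release; Gpr171, Gpr34 and Adk have the largest falls in each panel.

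The genes whose pattern over the 18 arrays was most like that of P2ry6, P2ry14 and Entpd1 were found by the root mean square difference of log2 values after each gene was centred on its own mean. Nearest to P2ry6 were P2ry14 (0.36), Slamf8 (0.39), a receptor of the SLAM family, and Tlr3 (0.40), the sensor of double-stranded RNA. Nearest to P2ry14 were Ms4a6c (0.29), Rab7b (0.31), a GTPase of late endosomes, and Cd180 (0.32), a Toll-like receptor homologue. Nearest to Entpd1 were Slamf8 (0.33), Alox5ap (0.35), which is needed for leukotriene synthesis, and Havcr2 (0.43), which encodes TIM-3. Among 19938 genes Entpd1 was the 8th nearest to P2ry6, and P2ry6 the 5th nearest to both P2ry14 and Entpd1. The changes of these 7 genes other than the members ran from -5.77 to -3.81 over the 3 backgrounds, so their likeness rests mostly on the size of the difference between stages.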

How the data were processed

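The deposited values are log2 intensities per probeset, made by the authors with RMA in the oligo package per the submitters' processing notes. The sources used here give no versions and do not say if arrays were processed as 1 set. RNA was amplified and biotin-labelled with NuGEN kits, per the labels' protocols. Of 35556 probesets, 21789 had exactly 1 gene symbol and gave 19938 genes, taking the probeset with the highest mean for 999 genes with several. Values were not normalised again and no gene was filtered by level. An array has no read depth, and the number of arrays limits the precision.

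Linear models with 1 mean per group were fitted to all genes with limma 3.58.1 in R 4.3.3 (12 residual degrees of freedom, 14.4 after eBayes), with Benjamini-Hochberg adjustment over all genes and a threshold of 0.05. Errors pool 1 spread per gene over the 6 groups, although spreads differed between groups. The functions were tested on simulated data. Members and lists were chosen with earlier results of these data known; the pathway list was taken from general knowledge of the pathway. Genes named were all members, the sort genes, cluster neighbours, called pathway genes with a CTRL change of at least 1 (up to 8 per direction) and the 3 genes most like P2ry6, P2ry14 and Entpd1; other pathway genes and single markers named were chosen after their values were seen. Deviations of same-numbered CCR7+ and CCR7- arrays correlated at 0.284, 0.321 and 0.236 in Ifnar1-KO and 0.267, 0.004 and 0.03 in GF. In CTRL mice the values were 0.188, 0.147 and 0.1. By a minimum of 0.1 the numbers were taken to pair arrays in Ifnar1-KO and CTRL, with CTRL replicate 3 at that minimum. CCR7+ GF replicate 3 and CCR7- GF replicate 2, of unlike numbers, reached 0.198. The main fits used no pairing. For comparisons within a stage the replicate block grouped arrays by number across backgrounds. The fits were repeated with array weights or an intensity trend, on genes reaching the median level, on arrays centred on their medians, on probeset means, on the compared groups alone, with a replicate block, with the trailing r in some array codes as a covariate, and without each array in turn. The trailing r stood on 1 of 3 arrays in each CTRL group and 2 of 3 in each Ifnar1-KO group. All 3 arrays of each GF group carried it. Its meaning is not given, so differences from CTRL cannot be fully told apart from it. Further repeats, without both Ifnar1-KO replicate 2 arrays and without the GF replicate 2 and 3 arrays, were added after seeing the data. Figures were drawn with matplotlib 3.10.9.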

Additional observations from a re-analysis of the deposited data

How the results depend on the processing

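Under the 28 alternatives, none of 900 recomputed values of the members in the 6 comparisons between backgrounds was called (smallest adjusted p 0.356, largest absolute value 1.32), and 79 of these small values changed sign. The changes of the 7 members other than P2ry2 and Nt5e kept their sign in all of 305 values. That of P2rx4 in GF was 0.70 without GF replicates 2 and 3. The count of other pathway genes called depended on the setting, and the cause was not tested. In CTRL maturation 3 rose, against 5 with array weights, 0 among genes at or above the median level, 1 with centred arrays, 6 with the replicate block, and 1 to 5 when 1 array was left out. In Ifnar1-KO maturation 2 rose, against 1 among genes at or above the median level, with only the groups compared or without both replicate 2 arrays, and 1 to 2 when 1 array was left out, and 7 fell, against 11 with array weights. In GF maturation 1 rose, against 2 with the trailing r as covariate or only the groups compared, 0 without replicates 2 and 3 and 0 to 1 when 1 array was left out, and 7 fell, against 4 without replicates 2 and 3. The replicate block changed no other count by over 1.5 times among the members and pathway genes. Over all genes, calls ranged from 2937 to 4571 in Ifnar1-KO, 2281 to 4555 in GF and 4083 to 7209 in CTRL maturation; within a stage from 0 to 7 in CCR7+ and 0 to 5 in CCR7- cells for Ifnar1-KO minus CTRL, and from 1 to 20 in CCR7+ and 2 to 41 in CCR7- cells for GF minus CTRL, the 41 without CCR7- GF replicate 1; and from 0 to 4 for the difference of the change in GF. Members below the median gene level have no value under that filter. The number of arrays and the low signal of P2ry13, P2ry2 and Nt5e limit what could be seen for them.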
